A study of Homo sapiens with 6 samples.

Results

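F-box genes encode the substrate receptors of SCF ubiquitin ligases, and 60 of the 18404 genes with a named probe set on the arrays carried a symbol beginning with FBXO, FBXW or FBXL and a digit. They were chosen by symbol, and each was represented by its probe set with the highest mean over all 6 arrays. Of the 60, 33 were FBXO, 9 FBXW and 14 FBXL genes, and 4 were transcripts that encode no F-box protein by their names, the pseudogenes *FBXW4P1*, *FBXL9P* and *FBXL21P* and the antisense RNA *FBXL19-AS1*. The data came from MUG-Chor1, a cell line grown from a sacrococcygeal chordoma, a malignancy that resembles the embryonic notochord. Pools of 20 cells were picked by morphology with a micromanipulator. The methods describe quadruplicate pools of each phenotype, whereas the data hold 3 of each. The 3 large pools (pools 2, 3 and 4) held large physaliferous cells, which are filled with vacuoles. The 3 small pools (pools 5, 6 and 7) held small cells without vacuoles. The cDNA of each pool was amplified and hybridized to 1 Affymetrix Human Gene 1.0 ST array. Separate cultures are not stated as the origin of the pools, so the p-values measure the spread between these pools only, and the data describe 1 cell line.

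In an SCF ligase the cullin CUL1 carries the RING protein RBX1 at one end and the adaptor SKP1 at the other, and SKP1 holds an F-box protein that brings the substrate. FBXW proteins bind substrates through WD40 repeats and FBXL proteins through leucine-rich repeats, whereas FBXO proteins carry other domains. The ligase is switched on when NEDD8 is attached to the cullin, is switched off by the COP9 signalosome, and exchanges its F-box protein with the help of CAND1. F-box proteins set the lifetime of cyclins, of beta-catenin, of NF-kappaB inhibitors and of many other regulators, and several are lost or gained in tumors.

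Values are given as log2 expression after robust multi-array averaging, and a difference of 1 is a doubling. A level of 6.64, the log2 of 100, was used as the expression floor below which signal was taken as near background. It is a fixed level close to the median signal of the arrays, and no background level was estimated. Median signal was 6.64 to 6.68 on the arrays of large and 6.73 to 6.76 on those of small pools, and between 53.1% and 60.1% of all genes were above the floor. The median of all genes' log2 fold changes, given throughout as large minus small, was -0.11, and 66.4% of genes were lower in large cells. All 7 chordoma and notochord markers examined, among them brachyury (*TBXT*), *KRT8* and *KRT19*, were above the floor in all 6 arrays. Of 5 leukocyte markers *CD68* and *TYROBP* were above the floor in all pools, *CD14* and *CD3E* in some, and *PTPRC* in none. Since each array held amplified cDNA from pooled cells, fewer expressing cells in a pool and less RNA per cell cannot be told apart.

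Among the F-box genes, every large pool exceeded all small pools for 8, every large pool lay below them for 16, and the pools of the remaining genes overlapped. The higher genes were *FBXO42*, *FBXW11*, *FBXL13*, *FBXO45*, *FBXO3*, *FBXO16*, *FBXO4* and *FBXL4*, with log2 fold changes of 0.49 to 1.67 and a median of 0.76. The lower genes differed less, with log2 fold changes from -0.14 to -0.71 and a median of -0.32. They were *FBXW8*, *FBXL14*, *FBXW4P1*, *FBXO44*, *FBXW12*, *FBXW5*, *FBXL9P*, *FBXL16*, *FBXO41*, *FBXL17*, *FBXL12*, *FBXL18*, *FBXW9*, *FBXO24*, *FBXO6* and *FBXO31*. Some gaps between the groups were small, among them those of *FBXO31* (0.01), *FBXO24* (0.03), *FBXO6* (0.04), *FBXL18* (0.04), *FBXW9* (0.07) and *FBXL4* (0.08). The groups were thus separated upward in 13.3% of F-box genes and in 5.48% of all genes, and downward in 26.7% of F-box genes and in 21.6% of all genes. In the deposited values the downward share was close to that of all genes. Both directions depended on the scaling. After quantile normalization 8 F-box genes were separated upward and 13 downward, beside 6.03% and 14.7% of all genes. After centring each array on its median 9 were upward and 11 downward, beside 8.65% and 10.7%. With the trend with signal level removed 8 were upward and 7 downward, beside 8.5% and 7.54%.

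In the limma test 0 of the 60 F-box genes passed an adjusted p under 0.05 with an absolute log2 fold change above 1, as did 0% of all 18404 genes, and the smallest adjusted p of an F-box gene was 0.32. A p above the threshold does not show that the phenotypes are alike. At an unadjusted p under 0.05, 9 F-box genes (15.0%) were higher and 10 (16.7%) were lower in large cells, against 4.33% and 10.5% of all genes. The median log2 fold change of the F-box genes was -0.11, the same as that of all genes, and 37 of 60 were lower (61.7%). After centring each array on its median, 9 F-box genes higher and 2 lower met the same limit, with 6.56% and 3.90% of all genes. After quantile normalization of the probe set values 8 were higher and 7 lower, with 4.53% and 5.90% of all genes, and once the signal-level trend of each array was taken out 9 were higher and 1 lower, with 6.15% and 2.48%. The number of lower genes also fell to 3 without large pool 2 or small pool 5 (8.64% and 5.55% of all genes) and to 4 without large pool 3 or small pool 6 (6.73% and 6.67% of all genes). An exact permutation test of 3 pools against 3 cannot give a two-sided p under 0.1 for any single gene.

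**Figure D1:**
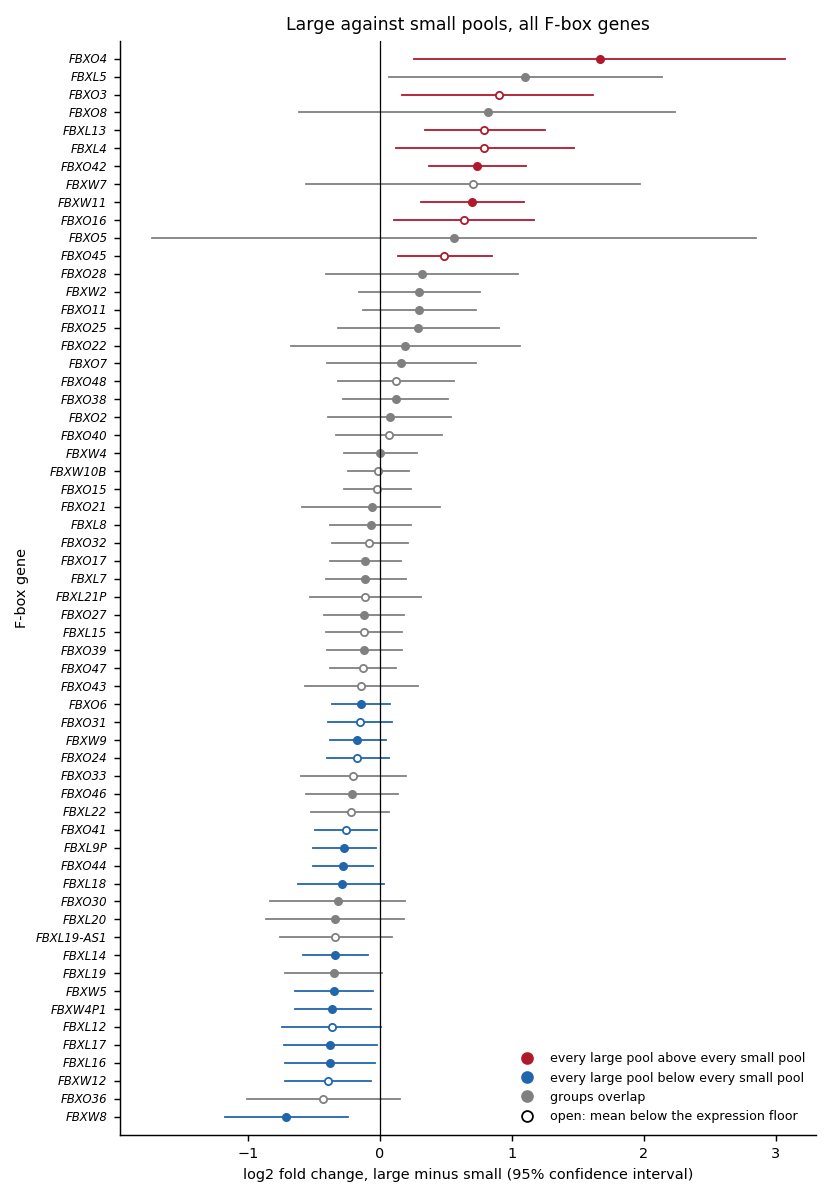
Large minus small difference in mean log2 expression (horizontal axis) for each of the 60 F-box genes (vertical axis), with 95% confidence intervals from limma. Red marks the 8 genes with every large pool above every small pool, blue the 16 with every large pool below, and open circles a mean over all 6 arrays below the expression floor of 6.64; 58 of the 60 points lie within 1 of 0.

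Of the 30 F-box genes above the expression floor in all 6 pools, 1 was higher in every large pool (*FBXW11*) and 10 were lower, against 7.51% and 19.1% of all genes at that level. Of the 18 below the floor in all pools, 3 were higher and 3 lower, against 2.04% and 22.4% of all such genes. Of the 12 above it in some pools 4 were higher and 3 lower, against 6.09% and 24.7%. These counts are small and were not tested. For genes below the floor the size of a difference is uncertain, since signal there was taken as near background.

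*FBXW11* and *FBXO42*, and in the other direction *FBXW8*, had the smallest p among F-box genes above the floor in at least 1 pool. The 300 bases around the start of each of these genes, most of them upstream, are shown because these genes carry the clearest differences; they are from RefSeq on GRCh38.p14. Both strands were searched for the letters CACGTG (E-box), CCGGAAGT (ETS), GGGCGGGG (SP1), CGCATGCG (NRF1 core), TTTGGCGC (E2F) and TGACGTCA (CRE), and matches are in capitals. These letters occur in 7.43%, 4.44%, 22.9%, 2.19%, 0.659% and 1.98% of the 27305 promoters of the same length. *FBXO42* holds the NRF1 core and *FBXW8* the E-box, and *FBXW11* holds none of them. A match is a description of letters only. A promoter was found for 45 of the 60 genes, too few to summarize a sequence property over the family.
FBXO42, chr1:16352431-16352730, minus strand: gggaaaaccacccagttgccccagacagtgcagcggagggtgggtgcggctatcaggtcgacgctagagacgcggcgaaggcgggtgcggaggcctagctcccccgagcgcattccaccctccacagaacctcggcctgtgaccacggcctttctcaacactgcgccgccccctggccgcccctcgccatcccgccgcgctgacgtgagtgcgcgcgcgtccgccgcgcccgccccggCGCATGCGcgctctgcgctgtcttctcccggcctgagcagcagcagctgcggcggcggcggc
FBXW11, chr5:172006589-172006888, minus strand: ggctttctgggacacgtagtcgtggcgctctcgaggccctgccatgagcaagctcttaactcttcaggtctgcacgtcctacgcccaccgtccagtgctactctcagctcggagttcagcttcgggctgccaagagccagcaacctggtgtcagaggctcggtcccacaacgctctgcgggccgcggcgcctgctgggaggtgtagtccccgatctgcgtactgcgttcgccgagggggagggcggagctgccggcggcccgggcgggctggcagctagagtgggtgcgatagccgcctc
FBXW8, chr12:116910700-116910999, plus strand: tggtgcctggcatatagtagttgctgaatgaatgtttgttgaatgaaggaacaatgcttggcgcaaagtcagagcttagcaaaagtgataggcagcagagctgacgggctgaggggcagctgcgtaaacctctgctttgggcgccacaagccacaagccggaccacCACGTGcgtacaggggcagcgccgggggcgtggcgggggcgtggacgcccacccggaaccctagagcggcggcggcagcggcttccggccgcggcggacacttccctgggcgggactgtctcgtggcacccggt

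Among the WD40-repeat receptors, *FBXW11* encodes beta-TrCP2, which recognizes phosphorylated beta-catenin and NF-kappaB inhibitors. *FBXW11* had log2 expression of 8.40, 8.33 and 8.75 in large pools 2, 3 and 4 and of 7.82, 7.58 and 7.98 in small pools 5, 6 and 7. The lowest large pool was 0.36 above the highest small pool, and every pool was above the floor. The log2 fold change of 0.70 had a standard error of 0.16 and a 95% confidence interval from 0.31 to 1.09 (adjusted p = 0.32, limma). *BTRC*, which encodes the close paralog beta-TrCP1 and does not carry an FBX symbol, had 7.71, 7.82 and 8.14 in large and 7.36, 7.33 and 7.67 in small pools. Its groups did not overlap either, with a log2 fold change of 0.43 (standard error 0.16, adjusted p = 0.33 from limma). The known substrates *CTNNB1* and *NFKBIA* had log2 fold changes of -0.15 and 0.30 at the RNA level, and their groups overlapped.

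*FBXW8* differs from other members in assembling with the cullin CUL7 instead of CUL1. It had 7.01, 6.61 and 6.92 in large and 7.22, 7.65 and 7.80 in small pools, so that every large pool was below every small pool. The log2 fold change was -0.71 (standard error 0.19, adjusted p = 0.32 from limma), the most negative of the family. *CUL7* had a log2 fold change of -0.11, and its groups overlapped.
*FBXW7* encodes the tumor suppressor that marks cyclin E, MYC, JUN and NOTCH1 for degradation. It had 6.34, 7.04 and 7.23 in large and 5.11, 6.27 and 7.11 in small pools. The groups overlapped and lay around the floor, and the log2 fold change of 0.71 (standard error 0.52) dropped to 0.18 without small pool 5 and was 1.18 without small pool 7. Of its substrates, *CCNE1* was lower in every large pool (log2 fold change -0.41), whereas *CCNE2* (0.10), *MYC* (-0.22), *NOTCH1* (-0.22) and *JUN* (0.04) overlapped. Both cyclin E genes, *CCNE1* and *CCNE2*, were below the floor in all pools.
The other WD40 members had smaller log2 fold changes. *FBXW5* had a log2 fold change of -0.35 and *FBXW9* of -0.17 with every large pool below every small pool. *FBXW2* (0.30) and *FBXW4* (0.00) overlapped. *FBXW12* had 5.19, 5.10 and 5.20 in large and 5.78, 5.54 and 5.34 in small pools, without overlap (log2 fold change -0.39) but below the floor throughout. *FBXW10B*, whose sequence is nearly shared with *FBXW10*, was between 2.87 and 3.01 in all pools on its own probe set. Probe sets that carry both symbols were not used and read higher. The brightest of them had 8.74, 7.93 and 6.89 in large and 6.29, 8.48 and 6.93 in small pools. It cannot be assigned to 1 of these genes.

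**Figure D2:**
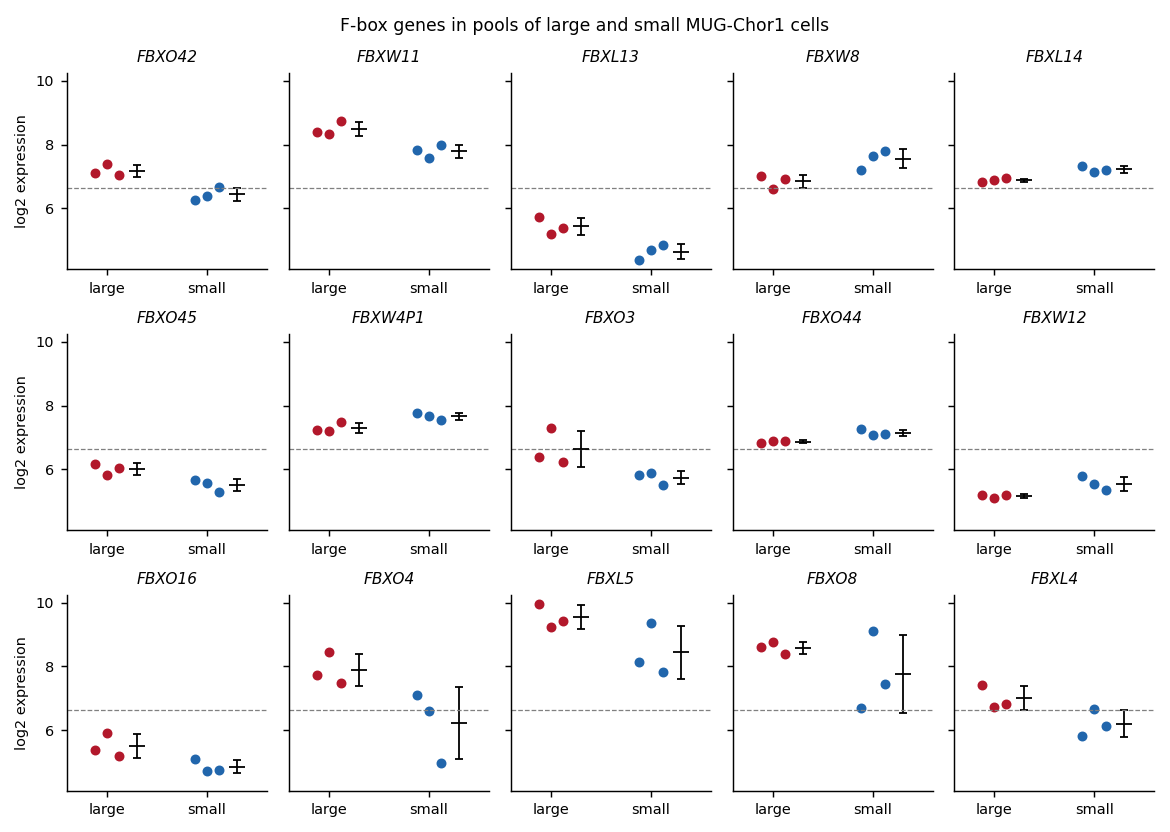
Log2 expression (vertical axis) of 15 F-box genes in each pool of 20 large (red) or 20 small (blue) cells: the 12 with the smallest p and the 3 with the largest fold change among the rest. Points are pools, horizontal marks with bars are means and SDs of 3 pools; the expression floor is dashed; in the first 12 panels and in that of *FBXL4* the groups do not overlap.

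Of the 12 genes with the smallest p, 7 were higher and 5 lower in large cells, and 4 were below the floor in all pools. Each of the 12 had an adjusted p of 0.32 from limma. The groups of all 12 did not overlap, which follows largely from their choice by p and is no separate result. Among them *FBXO42* encodes a Kelch-repeat F-box protein known to bind p53. *FBXO42* had 7.11, 7.40 and 7.04 in large and 6.28, 6.39 and 6.66 in small pools. All large pools were above the floor, whereas 1 of 3 small pools was. The log2 fold change of 0.74, with a standard error of 0.15 and a 95% confidence interval from 0.37 to 1.11, had the smallest p of the family. It ranged from 0.63 to 0.85 when each pool was left out in turn.
*FBXO4* is known to act on the telomere protein TRF1 and on cyclin D1. It had 7.74, 8.44 and 7.47 in large and 7.11, 6.59 and 4.97 in small pools. Its log2 fold change of 1.67 (standard error 0.58) was the largest of the family, and small pool 7 stood far below the other small pools. Without that pool the value was 1.04. The substrate genes *TERF1* (-0.21, and 0.37 on its second probe set) and *CCND1* (-0.04) overlapped between the phenotypes.
*FBXO3* is known to target the kinase HIPK2 and the F-box protein FBXL2. It had 6.38, 7.30 and 6.23 in large and 5.83, 5.89 and 5.50 in small pools. Only large pool 3 was above the floor, and the log2 fold change of 0.90 (standard error 0.30) dropped to 0.57 without it. *HIPK2* had a log2 fold change of 0.04.
*FBXO45*, which forms an atypical ligase with the large RING protein MYCBP2, had 6.17, 5.81 and 6.03 in large and 5.66, 5.56 and 5.30 in small pools. *FBXO16* had 5.38, 5.92 and 5.19 in large and 5.10, 4.71 and 4.76 in small pools. Both were below the floor in every pool, with log2 fold changes of 0.49 and 0.64.

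Genes of the family with an F-box-associated domain, through which FBXO2 and FBXO6 recognize N-glycans on misfolded glycoproteins, had log2 fold changes between -0.28 and 0.08. *FBXO44* had 6.83, 6.90 and 6.88 in large and 7.26, 7.09 and 7.10 in small pools. Its groups did not overlap, but the log2 fold change was only -0.28 (standard error 0.10), and it was -0.14 with the trend with signal level removed. *FBXO6* had a log2 fold change of -0.14 without overlap, *FBXO17* of -0.11, *FBXO27* of -0.12 and *FBXO2* of 0.08. The last 3 overlapped between the phenotypes. *FBXO6* and *FBXO27* were not lower once the trend with signal level was removed (0.00 and 0.03). *FBXO2* turned to -0.13 without large pool 2.
Some other FBXO receptors are given for their known substrates or roles, and their groups overlapped except for *FBXO31*. *FBXO11*, whose protein acts on BCL6, had 9.54, 9.21 and 9.10 in large and 8.90, 8.80 and 9.25 in small pools (log2 fold change 0.30, standard error 0.18, or 0.17 without large pool 2). *FBXO22*, whose protein acts on the histone demethylase KDM4A, had a log2 fold change of 0.19, which was -0.06 without large pool 2. *FBXO7*, mutated in an inherited parkinsonism, had 0.16. *FBXO31*, whose protein acts on cyclin D1 after DNA damage, had -0.15 and was below the floor in all pools. The gap between its groups was 0.01. Its log2 fold change was -0.07 after centring and -0.02 with the trend with signal level removed. *FBXO32*, the muscle atrophy gene atrogin-1, was between 4.72 and 5.04 in all pools, with a log2 fold change of -0.08 that was 0.01 after centring and 0.02 with the trend with signal level removed.

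Among the leucine-rich repeat receptors, 11 of 14 (78.6%) were lower in large cells (median log2 fold change -0.26), where 66.4% of all genes were lower, and *FBXL5*, *FBXL4* and *FBXL13* were higher. With the trend with signal level removed 8 of 14 were lower, beside 50.9% of all genes. FBXL5 is the iron sensor that degrades the iron regulatory protein IRP2. *FBXL5* had 9.96, 9.23 and 9.43 in large and 8.14, 9.36 and 7.81 in small pools. Small pool 6 lay between the large pools, and the other small pools were lower by more than 1. The log2 fold change was 1.10 with a 95% confidence interval from 0.07 to 2.14 (adjusted p = 0.33, limma). It was 1.57 without small pool 6 and 0.79 without small pool 7.
*FBXL4* encodes a mitochondrial F-box protein whose loss depletes mitochondrial DNA. It had 7.43, 6.73 and 6.83 in large and 5.82, 6.65 and 6.14 in small pools. The gap between the groups was 0.08, and the log2 fold change was 0.79 (standard error 0.28, adjusted p = 0.32 from limma). *FBXL13* had 5.72, 5.21 and 5.38 in large and 4.38, 4.70 and 4.86 in small pools, also a log2 fold change of 0.79 but below the floor in every pool.
*FBXL14*, whose protein is known to degrade the EMT factor SNAI1, had 6.83, 6.88 and 6.94 in large and 7.34, 7.14 and 7.19 in small pools. All 6 pools were above the floor, and the log2 fold change was -0.34 (standard error 0.10), or -0.19 with the trend with signal level removed. *SNAI1* was lower in every large pool as well (log2 fold change -0.38) and was below the floor throughout. *FBXL17*, which removes wrongly paired BTB proteins, had a log2 fold change of -0.38 and *FBXL16* one of -0.38, both without overlap. *FBXL12* (-0.36) and *FBXL18* (-0.29) did not overlap either, and *FBXL19* (-0.35) and *FBXL20* (-0.34) did.
The transcripts that are not F-box receptors were all lower in large cells, with log2 fold changes of -0.36 for *FBXW4P1*, -0.34 for *FBXL19-AS1*, -0.27 for *FBXL9P* and -0.11 for *FBXL21P*. *FBXW4P1* had 7.24, 7.19 and 7.48 in large and 7.75, 7.66 and 7.56 in small pools. It was above the floor in all pools, and its groups did not overlap.

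The F-box genes also differed in how much the pools of 1 phenotype varied. The median SD between pools was 0.19 in large and 0.18 in small cells, and 8 of 60 genes (13.3%) had an SD above 0.5 in at least 1 phenotype, against 17% of all genes. *FBXO5* varied most. It encodes EMI1, which restrains the anaphase-promoting complex before mitosis. *FBXO5* had 8.09, 8.27 and 9.14 in large pools and 9.19, 5.71 and 8.92 in small pools, so that small pool 6 was more than 3 below the other small pools. The log2 fold change of 0.56 (standard error 0.94) turned to -0.55 without that pool. The 20 proliferation genes examined had medians of 6.91, 6.80 and 8.49 in large and 7.99, 7.92 and 7.45 in small pools, and *MKI67* had its highest value, 9.22, in small pool 6. Other proliferation genes, *MCM6* (7.01) and *TTK* (5.03), had their lowest values of all pools in small pool 6. The part of proliferation in the differences between pools was not tested.
*FBXO8*, whose protein carries a Sec7 domain and acts on ARF GTPases, varied as *FBXL5* did. It had 8.60, 8.76 and 8.39 in large and 6.71, 9.11 and 7.46 in small pools. The large pools lay close together, whereas small pool 6 was above them and the other small pools below. The log2 fold change of 0.82 (standard error 0.58) was 1.49 without small pool 6 and 0.29 without small pool 5.

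**Figure D3:**
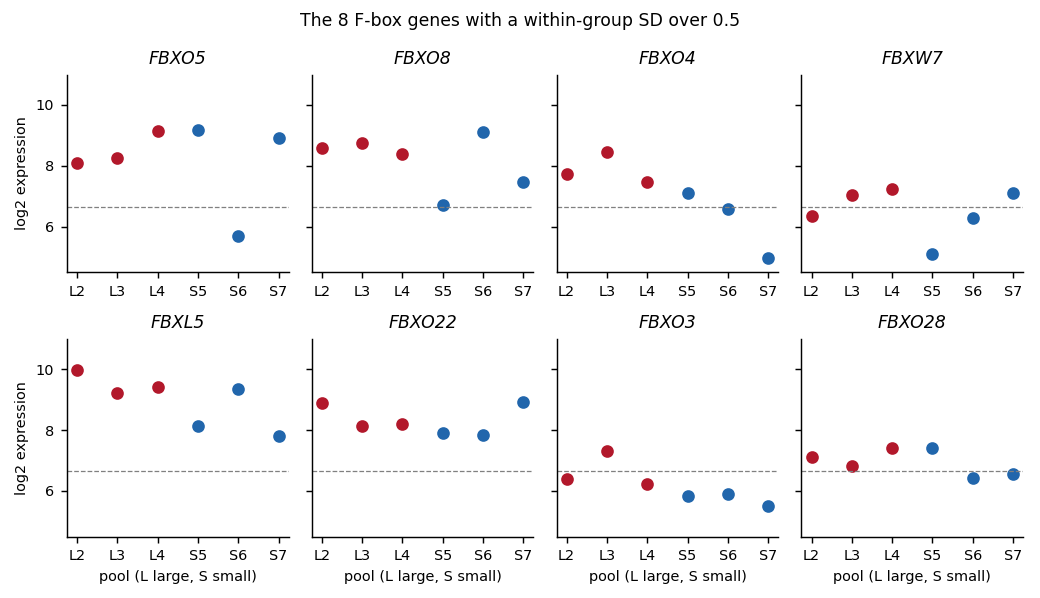
Log2 expression (vertical axis) in each pool (horizontal axis; L, large, red; S, small, blue) of the 8 F-box genes with an SD between the pools of 1 phenotype above 0.5. The expression floor is dashed; *FBXO5* is at 5.71 in small pool 6 and at 8.92 and 9.19 in the other small pools, whereas *FBXL5* and *FBXO8* are highest of the small pools in pool 6.

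The subunits that carry the F-box proteins were measured as well. Of 14 genes of the SCF core and of its exchange and partner factors, 3 (21.4%) were higher in large cells with an unadjusted p under 0.05. At that limit 0 were lower, and the median log2 fold change was 0.12. Among all genes 4.33% were higher and 10.5% lower at that limit. Among all genes with a mean above the floor these shares were 5.98% and 9.98%, and 12 of the 14 had such a mean. *CUL1*, the scaffold, had 9.65, 9.88 and 9.48 in large and 9.37, 9.40 and 9.02 in small pools. The groups did not overlap, and the log2 fold change was 0.41 (standard error 0.16). *RBX1*, the RING subunit that recruits the ubiquitin-conjugating enzyme, had 9.78, 9.26 and 9.09 in large and 7.84, 8.95 and 8.75 in small pools, again without overlap (log2 fold change 0.86, standard error 0.33, or 0.53 without small pool 5). Its relative *RNF7* had 7.75, 8.03 and 7.42 in large and 6.74, 6.12 and 7.37 in small pools (log2 fold change 0.99). The adaptor *SKP1* was between 11.42 and 11.56 in all pools on its brighter probe set, with a log2 fold change of 0.04 (standard error 0.09), or -0.01 with the trend with signal level removed. Its second probe set had 3.47, 4.15 and 5.45 in large and 3.50, 3.46 and 2.94 in small pools, below the floor and overlapping (log2 fold change 1.06, standard error 0.52). The mean of both gave 0.55.
Of 11 listed genes of NEDD8 conjugation 8 were measured, and *NEDD8*, *UBE2M* and *UBE2F* were not among them. Of the 8, 3 (37.5%) were higher with an unadjusted p under 0.05 and 0 were lower (median log2 fold change 0.05). The same shares of all genes stood beside them. A mean above the floor was found for 7 of the 8, and among all genes at that level the shares were 5.98% and 9.98%. *DCUN1D1*, which helps to transfer NEDD8 to cullins, had 9.25, 9.49 and 9.09 in large and 8.44, 8.15 and 8.64 in small pools. Every large pool was above every small pool, and the log2 fold change was 0.87 (standard error 0.17). *UBA3*, the catalytic subunit of the NEDD8-activating enzyme, and *DCUN1D5* had log2 fold changes of 0.55 and 0.61 without overlap, whereas *NAE1*, the partner of *UBA3*, had -0.07 with overlap. Of 9 genes of the COP9 signalosome, which removes NEDD8 from cullins, 0 had an unadjusted p under 0.05 in limma and 0 passed after adjustment (median log2 fold change 0.08). The smallest p belonged to *COPS6* (0.17), *GPS1* (-0.20) and *COPS7B* (0.61, from 0.32 to 1.01 with 1 pool left out), and the catalytic subunit *COPS5* had -0.13, which was 0.10 without small pool 7. No gene of these 3 lists passed, with a smallest adjusted p of 0.32 from limma.

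**Figure D4:**
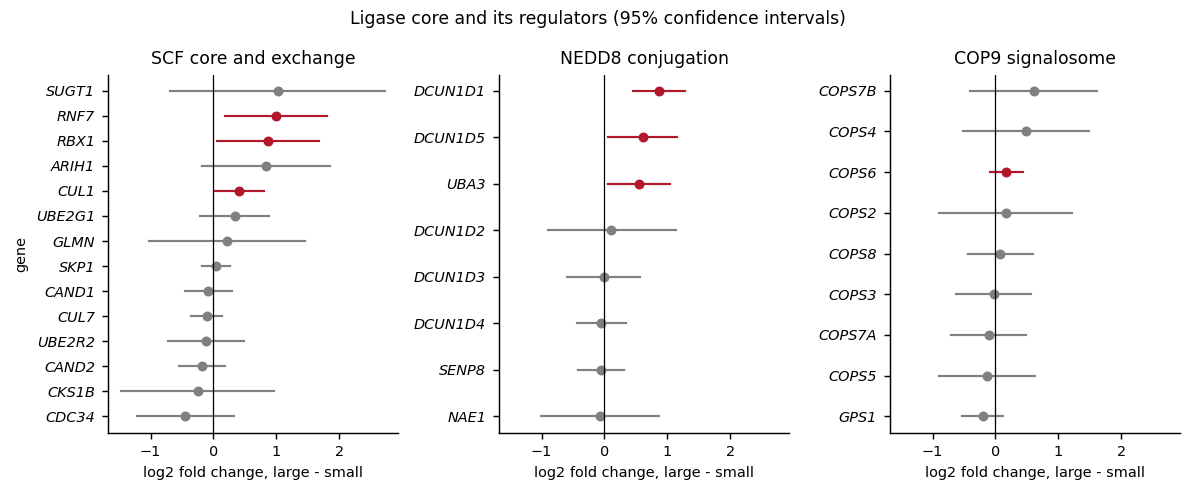
Large minus small difference in mean log2 expression (horizontal axis) with 95% confidence intervals from limma for 14 genes of the SCF core and its exchange, 8 of NEDD8 conjugation and 9 of the COP9 signalosome (vertical axes). Red marks genes with every large pool above every small pool, which are *CUL1*, *RBX1*, *RNF7*, *DCUN1D1*, *DCUN1D5*, *UBA3* and *COPS6*; gray marks overlap.

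Of 9 measured F-box genes that carry other names, 3 were higher and 6 lower in large cells (median log2 fold change -0.07). *BTRC* alone had an unadjusted p under 0.05, a share of 11.1% beside 4.33% of all genes higher at that limit. *NCCRP1* (-0.26) and *KDM2B* (-0.25) had the next smallest p. *SKP2*, the receptor for the cell cycle inhibitor p27, had 8.0, 7.73 and 7.83 in large and 7.14, 9.28 and 7.32 in small pools. Its log2 fold change of -0.06 turned to 0.62 without small pool 6 and was 0.02 after centring. *CCNF*, which encodes cyclin F, had -0.21 with overlap.
Of 24 substrate genes of F-box ligases, 2 were lower with an unadjusted p under 0.05 and 0 were higher (median log2 fold change -0.09). The share of 8.33% was near the 10.5% of all genes. The genes were *SNAI1* and *CCNE1*, followed by the clock gene *CRY2* (-0.24). *CRY1* went the other way, with a log2 fold change of 0.68 and every large pool above every small pool. Without overlap 1 of the 24 was higher, and 4 were lower. These shares of 4.17% and 16.7% stood beside 5.48% and 21.6% of all genes. RNA levels of substrates do not report their degradation. Of 47 receptors of other cullin ligases, which do not dock on SKP1, 5 were higher and 2 lower with an unadjusted p below 0.05. These shares of 10.6% and 4.26% stood beside 4.33% and 10.5% of all genes. By sign 24 receptors were higher and 23 lower (48.9%), where 66.4% of all genes were lower. The median log2 fold change of the receptors was 0.04. The smallest p belonged to *KLHL15*, with 7.78, 7.64 and 7.99 in large and 7.11, 6.61 and 6.72 in small pools (log2 fold change 0.99), to *SPOP* (0.59) and to *KLHL5* (1.52).
Markers of other cell types were examined beside these. Of 7 fibroblast markers, all with negative log2 fold changes (median -0.21), 0 had an unadjusted p under 0.05, with the smallest p for *THY1* (-0.47, or -0.26 without large pool 3), *COL1A1* (-0.21) and *LUM* (-1.11, or -0.41 without small pool 7 and -1.70 without small pool 6). Of 5 leukocyte markers *CD68* (0.60) alone had an unadjusted p under 0.05, followed by *TYROBP* (-0.29) and *CD14* (-0.19). This share of 20% stood beside 4.33% of all genes higher at that limit. Of 4 endothelial markers 0 met that limit, the first being *VWF* (-0.22), *PECAM1* (-0.21) and *CDH5* (-0.28). Of the proliferation genes 0 of 20 had an unadjusted p under 0.05, the smallest p belonging to *NUSAP1* (-2.21), *CCNB2* (-1.07) and *MKI67* (-1.07). Without large pool 4 these 3 were -3.40, -1.62 and -1.73. *CCNB2* was -0.61 without large pool 2, and *MKI67* was -0.65 without large pool 3. Of the chordoma markers *KRT8* (0.19), *CD24* (-0.08) and *KRT18* (0.22) had the smallest p. None of these markers passed after adjustment by limma.

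Features that the choice of genes did not use differed between the separated members. The 8 higher F-box genes spanned a median of 92.5 kb of the genome and the 16 lower ones 17.3 kb, against 34.0 kb for all 60. Among all genes the same held, with medians of 49.2 kb for those higher in every large pool, 16.5 kb for those lower and 24.5 kb overall. The shortest higher member was *FBXO45* with 20.4 kb, and *FBXL17* with 523 kb and *FBXW8* with 120 kb were long genes among the lower ones. All 15 members on chromosomes 16, 17 and 19 were lower in large cells, as were 22 of the 45 others. On these chromosomes 78.5%, 73.9% and 80.2% of all genes were lower. These chromosomes were put together after the values were seen, so the count is a description only. All 3 members on chromosome 12 were lower too, where 59.3% of all genes were. Of the 2 members on chromosome 22 only 1 was lower, where 82.0% of all genes were. After quantile normalization 14 of the 15 on chromosomes 16, 17 and 19 were lower, as were 21 of the 45 others. Of genes on all chromosomes 62.4% were lower. After centring 13 and 19 were lower, beside 54.4%. With the trend with signal level removed 11 and 16 were lower, beside 50.9%. The shares of all genes on chromosomes 16, 17 and 19 alone were not computed under these scalings. The 3 members on chromosome 4, *FBXL5*, *FBXO8* and *FBXW7*, were all higher, with log2 fold changes of 1.10, 0.82 and 0.71, where 55.9% of all genes were lower.

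**Figure D5:**
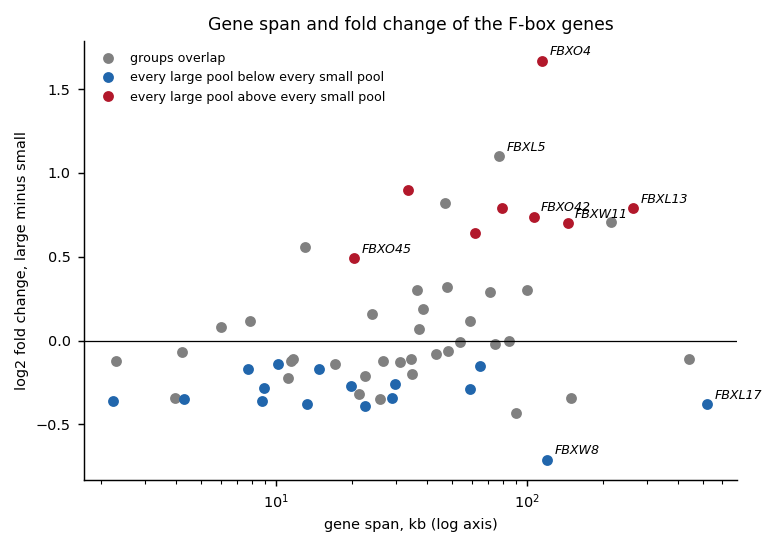
Gene span in kb (horizontal axis, log scale) and large minus small difference in mean log2 expression (vertical axis) for the 60 F-box genes. Red points, every large pool above every small pool, lie at 20.4 kb and more; blue points, every large pool below, have a median span of 17.3 kb.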

How the data were processed

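Expression of MUG-Chor1 pools was measured on 6 arrays, grouped by the labels into 3 large and 3 small pools of 20 cells each. Each array's log2 values, deposited per probe set, were made by the authors with background correction, quantile normalization and median polish (robust multi-array averaging). The affy package is named in the methods, and Affymetrix Expression Console in the processing notes of the submitters. The chip definition is not named in these sources. The number of pools limits the precision.

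Of 32321 probe sets, 19158 had 1 gene symbol in the platform annotation, 1388 several and 11775 none. For each of 18404 genes the probe set with the highest mean was kept; 61 F-box probe sets gave 60 genes, of which *FBXO17* had a second one. A further 7 probe sets that pair an F-box symbol with another symbol were not used here. All 60 genes matched RefSeq (GRCh38.p14) by gene ID. Large minus small was fitted in R 4.3.3 with limma 3.58.1 over all 18404 genes without covariate, with Benjamini-Hochberg adjustment and the thresholds of the methods (adjusted p under 0.05, absolute log2 fold change above 1). The filter of the methods has no stated limits there and was run as an alternative. The code was tested on simulated data.

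Named were the 12 genes with the smallest p, the 3 with the largest fold change among the rest, a list of well-known receptors, and in each other gene list the 3 genes with the smallest p and some core genes; other members were named after their values were seen. 1 gene on the list of well-known receptors is not reported here. The members and lists were chosen with earlier results of these data known. Alternatives covered scaling, filters, probe sets, the variance model, array weights and each pool left out.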

Additional observations from a re-analysis of the deposited data

How the results depend on the processing

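No paired analysis was possible because the pool numbers are not shared between the phenotypes. Under all 16 alternatives 0 F-box genes passed limma, and the smallest adjusted p of a member lay between 0.31 and 0.60. Lower members at an unadjusted p under 0.05 numbered 2 after centring, 1 with the trend with signal level removed and 3 to 10 with 1 pool left out. With that trend removed 7 were lower and 8 higher without overlap (7.54% and 8.5% of all genes). With a floor in at least 2 of 6 arrays 38 members were tested, of which 5 were higher at an unadjusted p under 0.05 and 4 higher without overlap (5.65% and 7.22% of all genes tested). With the added filter on an interquartile range above 0.5, 11 members were tested, of which 1 was higher and 0 lower (6.16% and 0.921% of all tested), 4 did not overlap upward and 1 downward (17.6% and 3.59%), and their median exceeded that of all genes by 0.40; this filter keeps variable genes only. With 1 pool left out, 17 to 25 members were lower without overlap (25.7% to 30.5% of all genes) and 8 to 12 higher (8.06% to 9.71%), and the median of the members minus that of all genes ran from -0.01 to 0.05. Named genes near 0 changed sign: after centring *FBXO32* (0.01), *CD24* (0.00) and *SKP2* (0.02); with the trend removed *FBXO32* (0.02), *FBXO6* (0.00), *FBXO27* (0.03) and *SKP1* (-0.01). With 1 pool left out the ranges were -0.06 to 0.54 for *FBXO22*, -0.13 to 0.19 for *FBXO2*, -0.01 to 0.43 for *KRT18*, -0.45 to 0.62 for *SKP2*, -0.50 to 0.10 for *COPS5* and -0.55 to 1.19 for *FBXO5*. The other 939 values of named genes kept their direction and stayed short of the threshold. The causes were not tested. Signal near the floor limits the size of change that can be read for dim genes.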
